A study of Mus musculus with 1778 samples.

Results

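Among single cells sorted from 4 somite mouse embryos, 87 held at least 5 reads of Pou5f1 and 34 held none, and these are set against each other across all other genes. Pou5f1 encodes OCT4, a transcription factor of the POU family that keeps the cells of the early epiblast pluripotent, and in the mouse it is shut off stepwise as the germ layers form. It works with SOX2 on paired DNA sites and acts upstream of Nanog. Germ cells keep Pou5f1 expressed.

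The cells were chosen by their own Pou5f1 reads, so the Pou5f1 values below only describe the choice. They came from Wnt1::Cre; Rosa26TdTomato embryos of the C57BL/6 strain, at 4 somites, and were profiled by Smart-Seq2, a full-length method for 1 cell in each well. Wnt1::Cre switches on the Tomato reporter in cells with a history of Wnt1 activity, mainly the dorsal neural tube and its neural crest, and the label then stays in their descendants. Both groups carry the same alleles, were dissected at the same stage and share a plate number in their titles, so the only difference fixed between them is the count of Pou5f1 reads. The labels name no embryo and no litter. Each group is therefore 1 pool of cells, no test was possible, and ratios are descriptions with counting error only.

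The series holds 1778 cells. Of this stage and plate number, 15 cells fell short of 50000 gene reads or of 1500 detected genes and were dropped, and 7 of those kept had 1 to 4 Pou5f1 reads and joined neither group. The 2 other pools of cells, which played no part in the choice, were read with the same cut: 4 somite cells of a second plate number (26 positive, 57 negative) and 6 somite cells of the first (68 positive; 88 negative besides 15 negative cells of other types, defined below). No pair of the kept 4 somite cells had identical counts.

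Pou5f1 (chr17:35506018-35510772, plus strand, GENCODE vM21 on GRCm38) had 2505 reads over the positive cells, a level of 50.6 CPM (reads per 1000000, spike-ins and Rn45s not counted) with a Poisson interval of 48.6 to 52.6, and 0 reads over the negative cells, which allows at most 0.203 CPM. Single positive cells had at least 5 reads with a median of 24, and ran from 6.48 to 172.1 CPM with a median of 44.5 CPM. Just inside the cut, 5 cells had exactly 5 reads (6.48 to 16.1 CPM). Just outside it, 4 cells had 4 reads (7.78 to 17.9 CPM), 1 had 3 and 2 had 1. Cells just inside and just outside the cut overlapped in CPM.

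The RefSeq promoter windows of Pou5f1 and Nanog are shown because the first belongs to the gene that made the groups and the second holds a paired site of the kind OCT4 and SOX2 bind. Both are from GRCm38.p6 and on the plus strand, chr17:35505782-35506081 and chr6:122707315-122707614. Capitals mark the paired site, in which letters of a POU site run into letters of a SOX site. It was searched with any base allowed at its eighth letter, and was chosen with the Nanog promoter in view.
Pou5f1: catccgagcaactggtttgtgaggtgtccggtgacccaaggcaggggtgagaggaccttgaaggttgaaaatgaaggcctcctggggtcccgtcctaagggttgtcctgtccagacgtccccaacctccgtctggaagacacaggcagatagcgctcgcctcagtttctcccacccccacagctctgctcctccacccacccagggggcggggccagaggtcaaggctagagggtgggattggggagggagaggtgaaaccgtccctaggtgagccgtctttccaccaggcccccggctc
Nanog: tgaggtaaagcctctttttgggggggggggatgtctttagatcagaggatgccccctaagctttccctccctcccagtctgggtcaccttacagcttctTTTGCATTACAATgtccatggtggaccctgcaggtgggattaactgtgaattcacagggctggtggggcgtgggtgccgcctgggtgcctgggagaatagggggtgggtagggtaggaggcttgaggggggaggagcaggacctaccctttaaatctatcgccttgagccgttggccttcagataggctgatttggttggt
On either strand, the paired site stood in 6 of 27025 genes with a promoter window of 300 bases (0.0222%), in 3 of 8172 matched genes measured here, and in none of the matched genes at least 2-fold higher in positive cells once cells of other types were left out. The plain octamer ATGCAAAT was in 2.94% of those higher genes and 1.47% of the lower genes (2.20% and 2.21% with all cells counted), against 1.48% of the measured genes and 1.97% of all 27025. The shorter ATGCAAA, which lies within the octamer and within the paired site, was in 5.15% of the higher and 4.42% of the lower genes, against 3.78% of the measured genes and 5.24% of all, and among 13 matched core pluripotency genes it was in Nanog, Sox2 and Zfp42.

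Depth did not separate the groups, but the number of detected genes differed. Without spike-ins and the ribosomal precursor Rn45s, positive cells had 238889 to 951057 reads with a median of 558840, and negative cells 227143 to 948323 with a median of 559434. Rn45s took a median of 47.1% of reads in positive and 47.6% in negative cells. Detected genes had a median of 7238 (4467 to 9754) in positive cells and 6397 (4927 to 8164) in negative cells, with wide overlap. After thinning every cell to 50000 reads the medians were 5768 and 5292.5 genes, and without cells of other types 5767 and 5213. The lower number in negative cells was therefore there at equal depth. Wells also differed: positive cells made up 58.3 to 87.5% of kept cells in plate columns 13 to 18. They made up 53.3% of 15 in column 19, 46.2% of 13 in column 20 and 55.6% of 9 in column 21. Spike-in reads of the compared cells reached 10231 in columns 13 to 18 and at most 1424 in columns 19 to 21. Their median was 3078 in positive and 1670.5 in negative cells, or 3108 and 2807 without cells of other types. The part of well position in the results, the difference in detected genes included, was not tested.

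**Figure D1:**
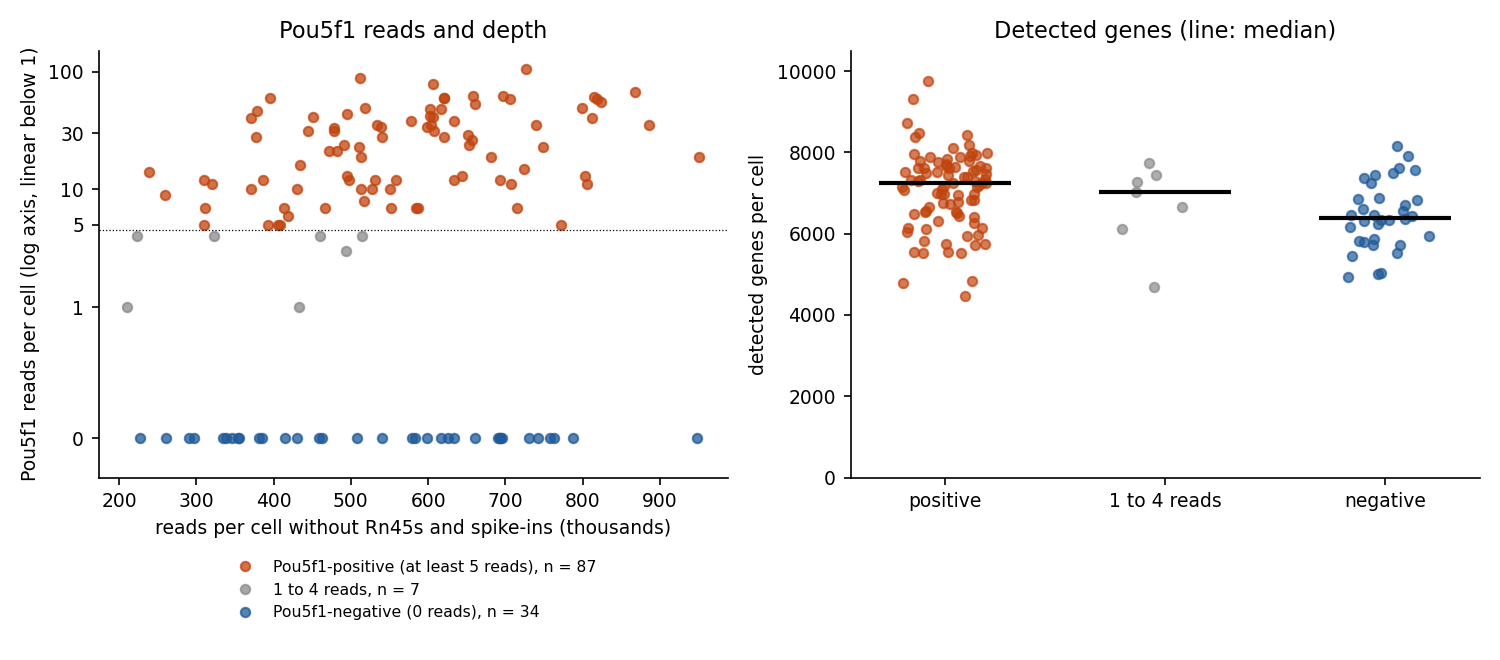
Each point is 1 kept cell of 4 somites: left, Pou5f1 reads (log axis, linear below 1) against reads without Rn45s and spike-ins; right, detected genes, with the median as a line. Positive and negative cells span the same depths, while the median of detected genes is 7238 in positive and 6397 in negative cells.

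Cells of both groups carried neuroepithelium markers and few carried the crest factor Sox10, although the label is cranial neural crest. A median of 8 of 22 neuroepithelium markers reached 20 CPM in positive cells and 5 of 22 in negative cells. Without cells of other types, defined below, the medians were 8 and 7. Negative cells of other types had 2 to 7 of these markers themselves, so the count alone does not mark a cell as neural plate. Sox10, a transcription factor of specified and migrating crest, had a read in 8.05% of positive and 11.8% of negative cells at 50000 reads. Wnt1, the gene whose promoter drives the Cre, was at 78.4 CPM in positive and 54.8 CPM in negative cells.

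A part of the negative cells carried markers of other cell types. Cells with at least 5 markers of endothelium, heart, endoderm, head and paraxial mesoderm, or notochord and floor plate at 20 CPM or more numbered 2 of 87 positive cells (2.30%, Clopper-Pearson 0.280 to 8.06%) and 10 of 34 negative cells (29.4%, 15.1 to 47.5%). In the positive group, 1 had 7 head and paraxial mesoderm markers and 1 had 5 notochord and floor plate markers. In the negative group, 3 had 10 to 13 of 14 endothelium markers, 6 had 5 to 8 of 15 head and paraxial mesoderm markers and 1 had 5 notochord and floor plate markers. The same count gave 1 of 26 positive and 7 of 57 negative cells for the second plate number, and 1 of 68 positive and 15 negative cells (14.6%) at 6 somites, so the share was higher among negative cells in all 3 pools. The summed level of the 14 endothelium markers ran from 0 to 299.3 CPM with a median of 31.9 CPM in positive cells, where 7 of them had no read, and from 0 to 8470 CPM with a median of 62.9 CPM in negative cells, where each had a read. These cut-offs were set after the data were seen. Cells with many surface ectoderm markers were as frequent in both groups: 17 of 87 positive cells (19.5%) and 7 of 34 negative cells (20.6%) had at least 7 of its 18 markers. By level, 3 of 13 measured genes of the surface ectoderm list were at least 2-fold higher and 5 lower in positive cells, and without cells of other types 0 were higher and 5 lower (median −0.33).

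**Figure D2:**
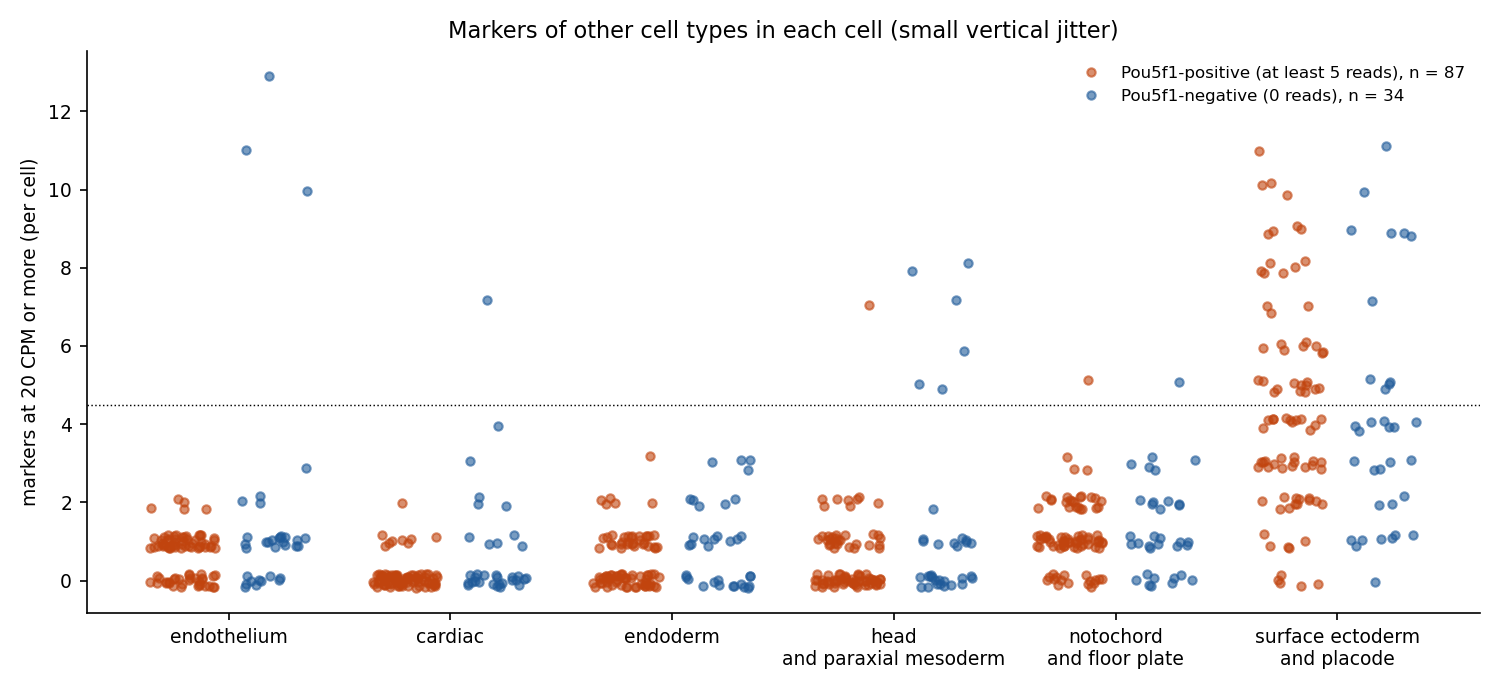
Each point is 1 cell of the positive (left of each pair) or negative group, and the axis counts markers at 20 CPM or more. Endothelium reaches 10 to 13 markers in 3 negative cells and at most 2 in any positive cell, while surface ectoderm markers range widely in both groups.

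Genes of these cell types had large ratios. The vessel receptor Kdr was at 6.78 CPM in positive and 189.5 CPM in negative cells. Emcn, a sialoprotein of the vessel wall, had 0 reads in positive cells and 18.9 CPM in negative ones, at least 312.3-fold lower with the positive sum set at 3 reads, and Pecam1 (at least 202.5-fold lower) and the blood and vessel factor Tal1 (at least 222.4-fold lower) were alike. Reads of Emcn, Pecam1 and Tal1 lay in 2 negative cells each. Among measured genes, 11 of 11 of endothelium were at least 2-fold lower in positive cells (median log2 ratio −6.64), as were 4 of 4 of heart (−7.00, or −5.70 with genes at 0 set at their bound), 4 of 5 of endoderm, 6 of 8 of head and paraxial mesoderm (−3.85) and 8 of 13 of ectomesenchyme (−1.62). Most of the endothelium and heart genes reached the 5 CPM needed only through the negative cells, so their direction was fixed by that limit and these counts describe the cell mix alone. The other 3 lists share this limit in part. Without cells of other types, 2 endoderm, 2 head and paraxial mesoderm and 6 ectomesenchyme genes were measured, against 5, 8 and 13. Alx1, a homeobox factor of head mesenchyme, was at 2.10 CPM in positive and 82.5 CPM in negative cells, and the proteoglycan Lum at 0 and 17.2 CPM. Both passed the limit through negative cells alone. Over all cells, 4.65% of 10290 measured genes were at least 2-fold higher in positive cells and 7.7% at least 2-fold lower, and the median over all genes was −0.01. Measured genes had at least 5 CPM in either group.

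The cells of other types were picked by these same markers, so leaving them out lowers these genes by construction. With 85 positive and 24 negative cells, 6.77% of 10124 genes were at least 2-fold higher in positive cells and 6% at least 2-fold lower. Of the endothelium list, 2 members were still measured (median −0.14), and no cardiac gene was. The ectomesenchyme median turned to 0.32 over 6 measured genes, the EMT and migration median was 0.09 over 13 measured genes, against −0.76 over 17 with all cells, and head and paraxial mesoderm had 2 measured members (median 1.52). Fn1, the matrix protein fibronectin, was at 61.3 CPM in positive and 303.3 CPM in negative cells when all cells were counted, and at 55.5 and 63.5 CPM without them.

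**Figure D3:**
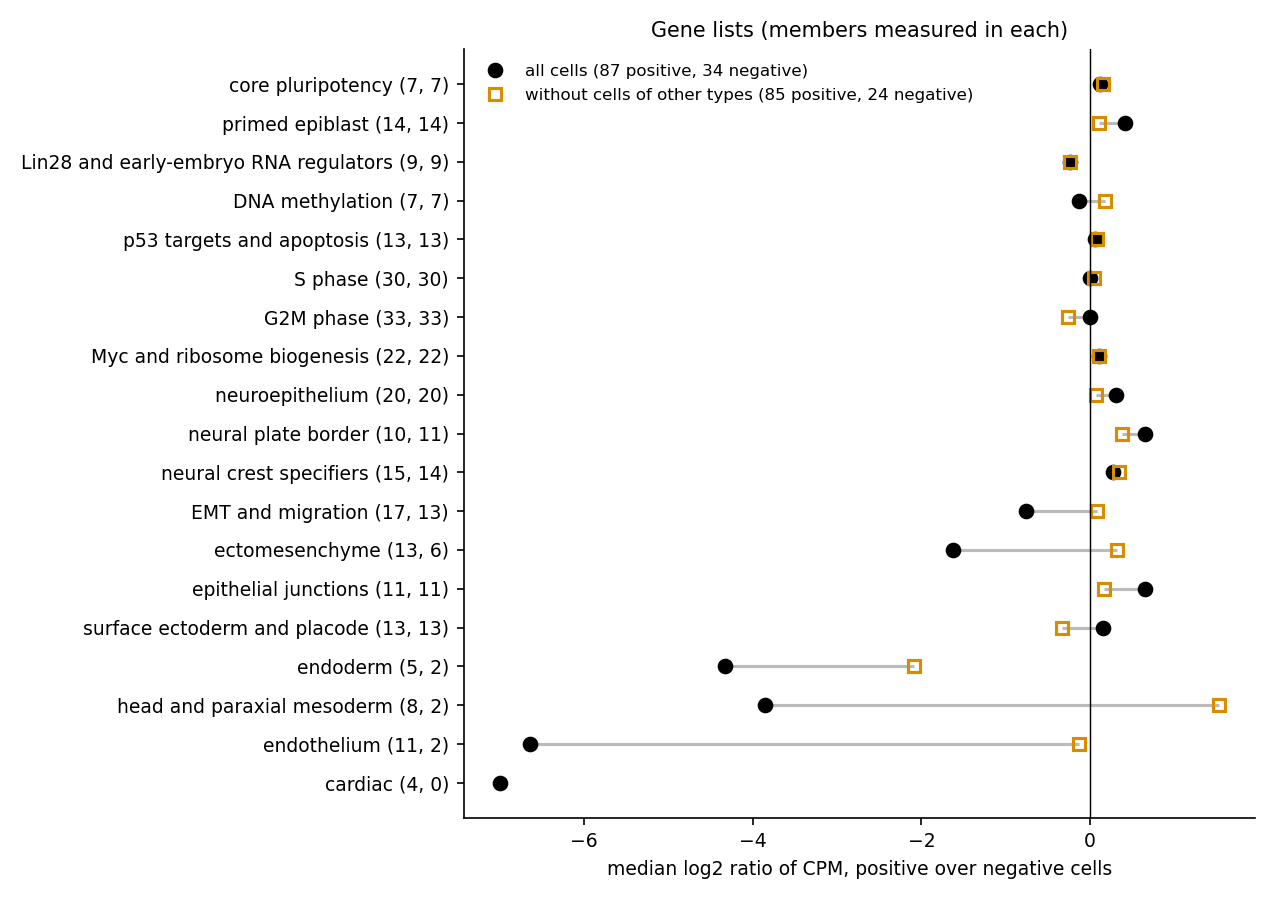
Each row is a gene list, with the members measured with and without the cells of other types in brackets, and points give the median log2 ratio of CPM, positive over negative cells. The lists of vessel, heart and mesoderm genes lie far to the left in all cells (endothelium −6.64), while core pluripotency and both cell cycle lists lie between −0.27 and 0.15 with and without these cells, and neural plate border lies at 0.65 and 0.37.

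Of the other pluripotency genes, those measured were at similar levels in both groups. All values in this paragraph and the next leave out the cells of other types. Nanog, a homeobox factor of the pluripotent network, ran from 0 to 170 CPM in positive and from 0 to 89.1 CPM in negative cells, with a median of 0 in both. Its summed level was 16.97 CPM in positive and 14.6 CPM in negative cells (log2 ratio 0.21), and at 50000 reads 30.6% of positive cells (21.1 to 41.5%) and 29.2% of negative cells (13 to 51.1%) had a read. Nanog reads were thus present in cells with and without Pou5f1 reads at overlapping shares. Sox2, the partner of OCT4 and a neural progenitor factor, had a median of 52.3 CPM in positive and 40.4 CPM in negative cells. Sall4, a zinc finger factor of early embryonic cells, had medians of 382.3 and 405.2 CPM in positive and negative cells, and Lin28a, an RNA-binding protein that blocks let-7 maturation, had 294.7 and 307.7 CPM. Both Sall4 and Lin28a had a read in all 85 positive and all 24 negative cells at 50000 reads. Utf1, a chromatin factor of pluripotent cells, had a read in 16.5% of positive (9.31 to 26.1%) and 8.33% of negative cells (1.03 to 27%). Of 7 measured genes of the core pluripotency list, Pou5f1 apart, none was 2-fold higher or lower (median 0.15). The rest of the list was not measured, so the list as a whole was not shown to be active. Of its 17 genes besides Pou5f1, 5 had no read in any positive cell and 7 had none in any negative cell. In the other pools the median of this list was −0.22 over 6 measured genes for the second plate number and 0.58 over 8 at 6 somites.

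Genes of the primed epiblast, the pluripotent state that precedes gastrulation, were likewise close. The de novo DNA methyltransferase Dnmt3b had a median of 917 CPM in positive and 953 CPM in negative cells. The kinase gene Pim2 had medians of 556.3 and 460.2 CPM in positive and negative cells, and the head and forebrain factor Otx2 102.6 and 67.7 CPM. Pou3f1, a POU factor of the late epiblast and neural plate, had 40.9 and 23.3 CPM, with summed levels of 53.1 and 48.7 CPM in positive and negative cells. Its share of cells with a read at 50000 reads was 77.6% in positive (67.3 to 85.97%) and 50% in negative cells (29.1 to 70.9%). None of 14 measured members was past 2-fold (median 0.11). Among germ cell genes, 1 of 6 measured members was at least 2-fold higher in positive cells and 1 at least 2-fold lower. No cell of either group had 7 of 16 germ cell markers, and 1 positive and 0 negative cells had 5. Of other POU genes, Pou2f1, which is widely expressed, was at 59.2 CPM in positive and 66.3 CPM in negative cells.

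**Figure D4:**
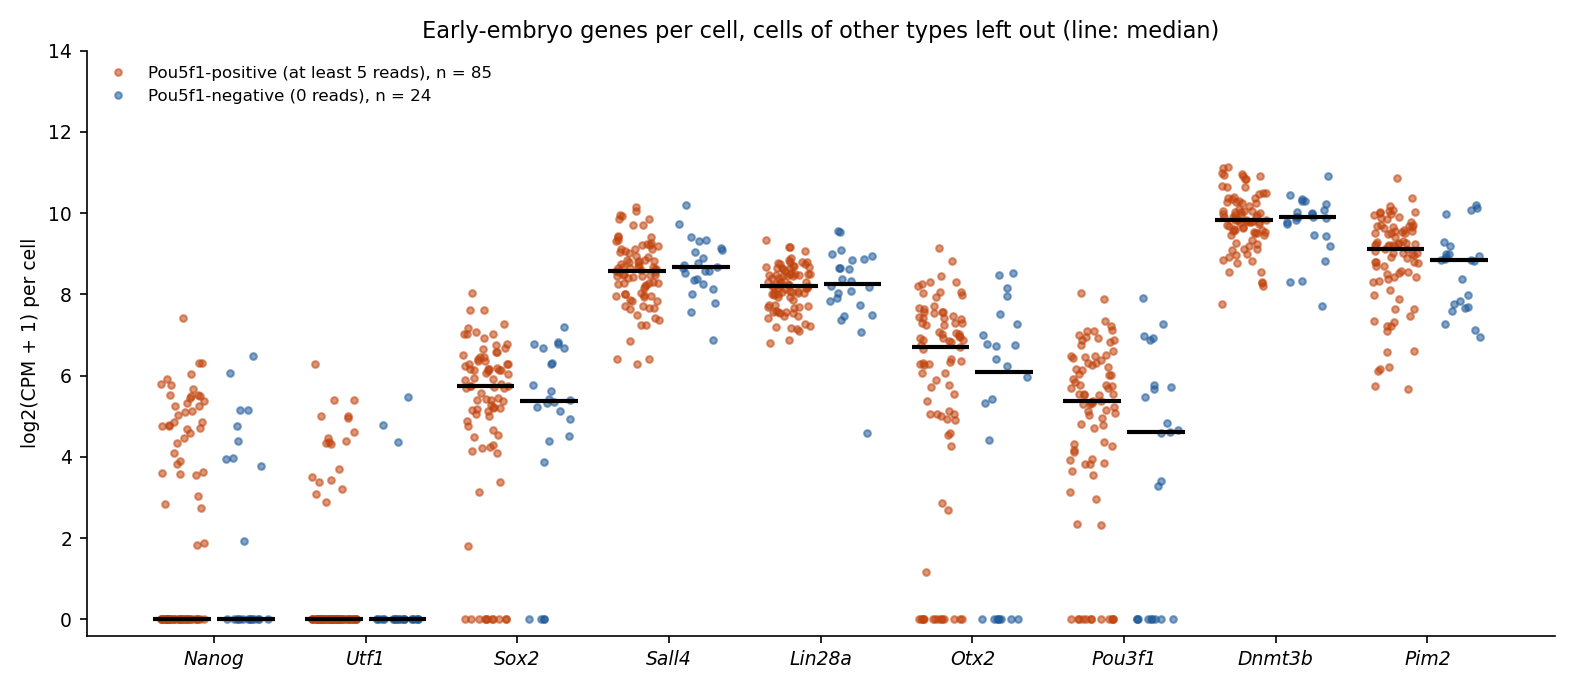
Each point is 1 cell, positive (left of each pair, n = 85) or negative (n = 24), on a log2(CPM + 1) scale, with cells of other types left out and the median as a line. The clouds overlap for all 9 genes, and the medians of Sall4 are 382.3 CPM in positive and 405.2 CPM in negative cells.

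Nanog and Pou5f1 were also counted together at 5 reads or more, again without cells of other types. Nanog passed in 37 of 85 positive cells (43.5%, 32.8 to 54.7%) and 9 of 24 negative cells (37.5%, 18.8 to 59.4%), and with all cells counted in 42.5% of positive and 29.4% of negative cells. For the second plate number it passed in 5 of 25 positive (20%, 6.83 to 40.7%) and 8 of 50 negative cells (16%, 7.17 to 29.1%), and at 6 somites in 15 of 67 positive (22.4%, 13.1 to 34.2%) and 11 of 88 negative cells (12.5%, 6.41 to 21.3%). The intervals of both groups overlapped in each pool. Among the 85 positive cells, Pou5f1 CPM was weakly related to the other genes read, as a description: Spearman's rho was 0.03 with Nanog, 0.03 with Sox2, 0.18 with Sall4, 0.16 with Otx2 and 0.24 with Pmaip1, over cells of 1 pool that differ in depth. It was 0.07 with reads and −0.12 with detected genes.

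Genes higher in positive cells were few at high levels and spread over functions. A rule on level, share of cells and direction left 29 higher and 59 lower genes, of which the 15 with the largest ratios in each direction are named. Dcp1a, a cofactor of mRNA decapping, had the largest ratio: it ran from 0 to 265.2 CPM with a median of 50.1 CPM in positive cells and from 0 to 110.2 CPM with a median of 2.90 CPM in negative cells (log2 ratio 1.61, and 1.80 without cells of other types). Next came Ercc6l2, a helicase-like protein of DNA repair (1.46), and Pmaip1, a p53-responsive cell death gene also called Noxa (1.35). Over all kept cells, Pmaip1 ranged from 0 to 832.5 CPM with a median of 109.3 CPM in positive cells, against 0 to 676.8 CPM with a median of 0 in negative cells. Most negative cells of other types had no Pmaip1 read, while most of the remaining negative cells had reads. Its negative median of 0 therefore depended on the cell mix. Kbtbd8, an adaptor of a CUL3 ubiquitin ligase with a role in crest specification described in human cells and Xenopus, was at 61.04 CPM in positive and 24.1 CPM in negative cells. The immediate early gene Egr1 was at 102.3 and 40.5 CPM in positive and negative cells, and the Wnt antagonist and target Nkd1 at 124.3 and 56.5 CPM. The rest were Mid1ip1, Zfp850, Zscan22, the miR-17 cluster host Mir17hg, Mapk8ip2, Slc29a2, Sult4a1, Ppp1r16a and Galnt16, with log2 ratios from 1.10 to 1.33. In every one of the 15 the highest negative cell lay above the median positive cell, so the groups overlapped cell by cell. In 10 of the 15 the median over all kept negative cells was 0, and negative cells also had fewer detected genes. With both groups limited to cells with at least 5000 detected genes at 50000 reads (72 positive, 15 negative) Dcp1a had a log2 ratio of 1.41, Pmaip1 of 1.29 and Mid1ip1 of 0.49.

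The 15 named lower genes were read with and without the cells of other types. Hapln1, which links hyaluronan to proteoglycans, ran from 0 to 57.99 CPM in positive and from 0 to 1910 CPM in negative cells with a median of 0 in both, and its log2 ratio was −5.49 over all cells and −1.52 without cells of other types. The imprinted RNA H19 had ratios of −4.00 and −1.85 in the same order, the vessel gene Egfl7 −1.84 and −0.77, and the cell adhesion gene Cdh6 −1.82 and −1.57. Emilin1, a matrix glycoprotein, was at −4.16 over all cells and at 1.33 without cells of other types. The others were the motor protein Myo1c, the protease Plat, Dab2, Fn1, the imprinted genes Cdkn1c and Peg3, Ets1, Dmxl1, Gpx3 and Cald1. Without cells of other types 14 of the 15 kept their sign and 6 stayed past 2-fold.

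In the cells that the choice did not use, the named genes behaved differently. The same cut of 5 reads met other depths there. Over all kept cells, positive cells of the second plate number had medians of 8.5 Pou5f1 reads (22.6 CPM) and 398662 reads without Rn45s. Positive cells at 6 somites had 17.5 (41.7 CPM) and 483148, against 24 (44.5 CPM) and 558840 in the first pool. The part of these differences was not tested. Without cells of other types, 5.85% of 10078 genes were at least 2-fold higher in positive cells of the second plate number and 6.53% lower, and at 6 somites 3.69% of 10116 were higher and 4.86% lower. Of the 15 named higher genes, 8 kept their sign for the second plate number, with 2 past 2-fold (Egr1 and Ercc6l2), and 6 kept it at 6 somites, with none past 2-fold. Egr1 was at 4.84 CPM in positive and 0.652 CPM in negative cells of the second plate number, on 50 and 14 reads. Dcp1a had log2 ratios of −0.38 and −0.44 in these pools, and Pmaip1 0.46 and 0.75. Of the 15 named lower genes, 9 and 10 kept their sign, with 4 and 3 past 2-fold.

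**Figure D5:**
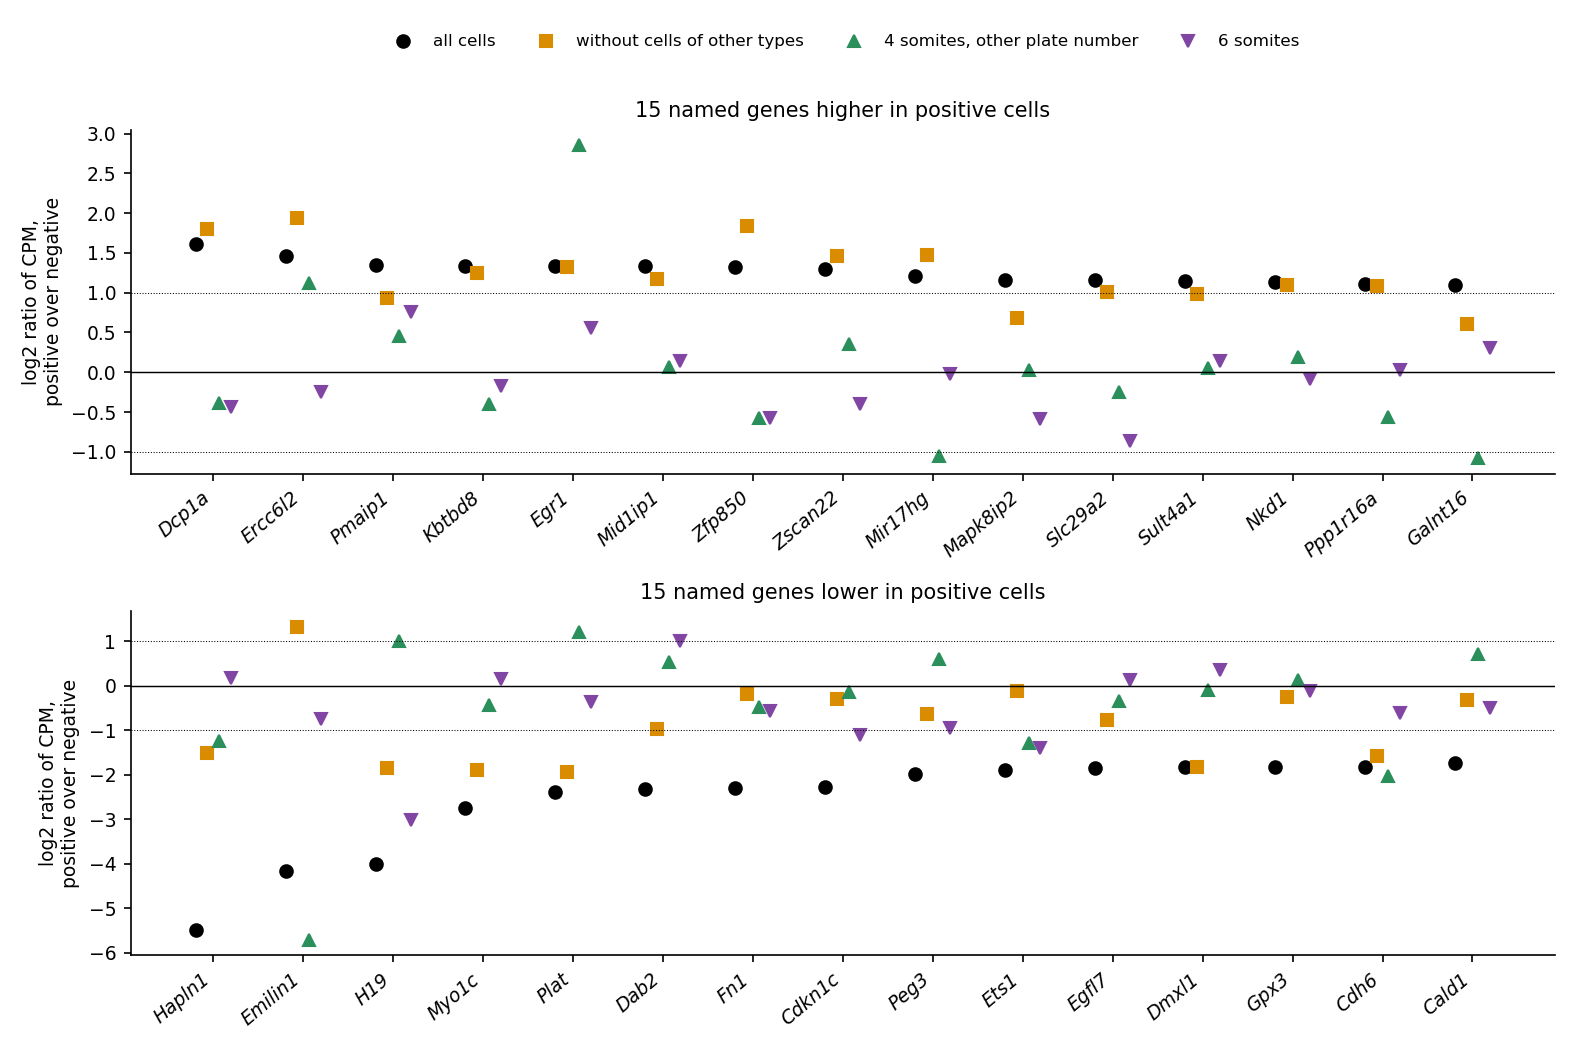
Points give the log2 ratio of CPM, positive over negative cells, of the 15 named higher (top) and 15 named lower genes (bottom) in all cells, without cells of other types, and in the 2 pools not used for the choice (also without cells of other types); dotted lines mark 2-fold. Dcp1a leads the higher genes at 1.61 and lies at −0.38 and −0.44 in the other pools.

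The genes past 2-fold were set side by side between the pools. Of the genes at least 2-fold higher in positive cells, 70 (10.2%) were also at least 2-fold higher for the second plate number, where they were 11.9% of the higher genes, and 93 (13.6%) were at least 2-fold lower there; of all genes measured there, 5.85% were higher and 6.53% lower. At 6 somites 59 (8.61%, and 15.8% of the higher genes there) were higher and 76 (11.1%) lower, against 3.69% and 4.86% of all genes. Of the lower genes, 61 (10.05%, and 9.27% of the lower genes of the second plate number) were lower and 61 higher for the second plate number. At 6 somites 62 of them (10.2%, and 12.602% of the lower genes there) were lower and 43 higher. The 3 pools share no cell. Higher in all 3 were 7 genes (1.02% of the higher genes of the first pool), picked out after their values were seen: Arhgap24, Fam160b2, Tnfrsf22, Slc2a5, Phf8, Scarb2 and Sh3bp2. In both 4 somite pools all of them but Phf8 were below 5 CPM in negative cells. At 6 somites this held for Arhgap24, Tnfrsf22, Slc2a5 and Sh3bp2. In those pools these genes passed the limit through positive cells alone, which fixed their direction. Phf8, a histone demethylase, had the highest level, at 21.1 CPM in positive and 5.82 CPM in negative cells (log2 ratio 1.85), 25.9 and 12.1 CPM for the second plate number (1.09), and 49.5 and 19.4 CPM at 6 somites (1.35). Lower in all 3 were Lingo3, Capn6, Wfikkn1, Tfap2b, Enpp2, Rasgef1b and Ppp1r3g (1.15% of the lower genes of the first pool), also picked out after their values were seen. In the first pool all of these but Ppp1r3g were below 5 CPM in positive cells, so the limit fixed their direction there too. The same held for all but Tfap2b for the second plate number, and for Lingo3, Capn6, Wfikkn1 and Rasgef1b at 6 somites. Tfap2b, a crest transcription factor, was at 1.998 CPM in positive and 5.20 CPM in negative cells (−1.38), with log2 ratios of −1.30 and −1.49 in the other pools.

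Crest specifiers, the transcription factors and receptors that mark cells turning into crest, gave unlike values in the 3 pools. Without cells of other types, 1 of 14 measured specifiers was at least 2-fold higher and 2 were at least 2-fold lower in positive cells (median 0.34), against 1 higher and 7 lower of 15 for the second plate number (−0.60) and 0 higher and 6 lower of 16 at 6 somites (−0.42). Of all genes, 6.77% were higher and 6% lower in the first pool, 5.85% and 6.53% for the second plate number, and 3.69% and 4.86% at 6 somites; the list counts below stand beside the same shares. Sox10 was at 6.99 CPM in positive and 5.28 CPM in negative cells (log2 ratio 0.40), but at 10.45 and 41.3 CPM for the second plate number (−1.98) and 7.49 and 32.8 CPM at 6 somites (−2.13). Snai1, a repressor of E-cadherin in epithelial-mesenchymal transition, was at 13.9 and 7.84 CPM in positive and negative cells, then 8.61 and 29.1 CPM and 7.15 and 21.8 CPM in the 2 other pools. Ets1, a factor of cranial crest and vessels, had ratios of −0.12, −1.30 and −1.39 in the same order. Positive cells had similar Sox10 levels in all 3 pools, while negative cells of the other 2 pools had more. The difference between pools was not tested. Rxrg, a retinoid receptor of the specifier list, was higher in positive cells in both 4 somite pools: it was at 38.3 CPM in positive and 10.9 CPM in negative cells (1.81), at 56.3 and 18.01 CPM for the second plate number (1.64), and at 31.3 and 36.4 CPM at 6 somites (−0.22).

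Genes of regional identity and signalling gave mixed values. Of 12 measured genes of forebrain and midbrain identity, 0 were at least 2-fold higher and 2 at least 2-fold lower in positive cells without cells of other types (median −0.29), against 0 and 7 of 13 for the second plate number (−1.47) and 0 and 3 of 12 at 6 somites (−0.38). Rax, a factor of the eye field and forebrain, was at 30.2 CPM in positive and 39.3 CPM in negative cells, and at 5.61 and 52.3 CPM for the second plate number. Of 20 neuroepithelium genes 1 was at least 2-fold higher and none lower (median 0.07). Foxa2, a factor of floor plate, notochord and endoderm, was at 3.69 CPM in positive and 52.6 CPM in negative cells, and at 6.48 and 3.58 CPM for the second plate number. Nkx1-2, a factor of caudal progenitors, was at 18.2 CPM in positive and 4.19 CPM in negative cells, with a read in 2 negative cells, 1 of them at 154.6 CPM. Among 9 Wnt targets, 2 were at least 2-fold higher (median 0.14), Nkd1 and Axin2, against 0 of 9 when cells with surface ectoderm markers were left out too and 0 of 9 in each of the other pools. Axin2 was at 19.6 CPM in positive and 9.003 CPM in negative cells. Axin2 had log2 ratios of −0.34 and −0.38 in the other pools.

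Growth genes were close to level. None of 30 S phase genes and none of 33 G2M phase genes was past 2-fold without cells of other types (medians 0.05 and −0.27), nor was any of 22 genes of Myc and ribosome biogenesis (median 0.11). Of 7 DNA methylation genes, 1 was past 2-fold: Tet2, which oxidises methylcytosine, was at 7.36 CPM in positive and 0.543 CPM on 7 reads in negative cells. Its log2 ratio was 3.66, then 1.31 for the second plate number, on 24 and 20 reads, and 2.79 at 6 somites, at 4.83 and 0.688 CPM. In the first pool Tet2 passed 5 CPM through the positive cells alone, so the limit fixed its direction there. It was below 5 CPM in the 2 other pools and so not among their measured genes, though its ratio had the same sign. Of 13 p53 targets and cell death genes, 2 were at least 2-fold higher and 2 lower (median 0.08), against 4 and 2 with all cells counted, and 5 and 1 of 14 when cells with surface ectoderm markers were left out too (median 0.36). Trp53 itself was at 374.3 CPM in positive and 385.8 CPM in negative cells over all kept cells.

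Of the genes in the table within 50000 bases of Pou5f1 on chromosome 17, only Cchcr1 and Tcf19 had reads in the compared cells of the first pool. Psors1c2 and Cdsn had at most 6 reads in a group of the other pools. Cchcr1 (chr17:35517100-35531015, plus strand), which encodes a coiled-coil protein of the centrosome and RNA processing bodies, was at 13.73 CPM on 680 reads in positive and 0.990 CPM on 18 reads in negative cells (log2 ratio 3.76, all kept cells). At full depth it had a read in 23 of 87 positive cells (26.4%, 17.6 to 36.98%) and 2 of 34 negative cells (5.88%, 0.720 to 19.68%). For the second plate number it was at 6.65 CPM in positive and 9.43 CPM in negative cells, and at 6 somites at 4.39 and 8.54 CPM. The direction by CPM was thus reversed in both other pools, but by share of cells only at 6 somites. It had a read in 4 of 26 positive (15.4%) and 8 of 57 negative cells (14.04%) of the second plate number. At 6 somites 10.3% of positive and 13.6% of negative cells had a read. The intervals of these shares overlapped in each pool. Tcf19, the nearest gene in the table, was at 7.51 CPM in positive and 14.2 CPM in negative cells (−0.92), with a read in 20 of 87 and 10 of 34 cells, and at 7.40 and 8.77 CPM (−0.25) without cells of other types. The sources used here do not say how strands were counted, and Cchcr1 and Tcf19 lie on opposite strands without overlap. Gm19553, an antisense gene on the minus strand (chr17:35509077-35510551), lies within Pou5f1 and has no counts of its own here. Its part in the Pou5f1 reads was not tested.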

How the data were processed

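The deposited table holds counts, per the labels and its values: whole reads for each gene in each cell, with no molecular identifiers, for 24920 genes and 92 spike-ins. The submitters' processing notes list bcl2fastq 2.18, STAR 2.6 and the mm10 build; the read counter and annotation release are not given there. Of 1778 columns, 1347 belong to other stages or plate numbers and were not used. The 7-digit number in the titles was read as a plate, which the labels do not state.

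Reads except spike-ins and Rn45s were summed per group and scaled to CPM, and log2 ratios were formed with 0.5 reads added to each sum; genes needed 5 CPM in either group. A gene with at most 3 reads in both groups got no ratio, and a sum of 0 was set at 3 reads for bounds. "At least 2-fold" is a size, not a test. Intervals (Poisson for sums, Clopper-Pearson for shares, at 95%) cover counting error only, as reads without identifiers are not independent molecules. Shares of cells with a read used cells thinned at random to 50000 reads. Those of Cchcr1 and Tcf19 counted all reads of each cell instead. Cells of other types had at least 5 markers at 20 CPM. No doublet caller was run on cells sorted 1 to a well.

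Named genes had at least 50 CPM in the higher group, a read in 25% of its cells at 50000 reads, a 2-fold ratio, and the same sign for mean and median CPM and without each group's highest cell; unnamed models, pseudogenes, ribosomal, mitochondrial and sex-linked genes were not eligible. The 15 largest in each direction were kept, with list members by size. The groups, the 33 gene lists and the rule were chosen with earlier results of these data known. In all, 16 alternatives were planned and 3, on cell mix and detected genes, were added after the data were seen. edgeR 4.0.16 and DESeq2 1.42.0 served for scaling alone; other steps used Python 3.11.15, numpy 2.4.6, pandas 2.3.3 and scipy 1.17.1. The ratio step was tested on simulated data.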

Additional observations from a re-analysis of the deposited data

How the results depend on the processing

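Under 15 of the 16 other settings chosen at the outset, all but the one on 3 markers of another type, all 30 named genes kept their sign and at least 29 stayed past 2-fold. Several of these could hardly move a named gene: 2 limits on depth kept the same cells, and 2 minimum CPM limits leave ratios as they are. TMM and DESeq2 factors shift all genes alike. The mean of CPM per cell could not change a sign, because the rule for named genes already required the same sign for it. Adding 5 reads, or leaving out the cell with most Pou5f1 reads, is also a small change. The count of 15 therefore overstates the checks made on named genes. Past 2-fold in the same direction were 17 of 30 without cells of other types, 18 of 30 with 5000 genes, 12 of 29 without surface ectoderm cells too and 13 of 28 without cells with 3 markers. Of the 15 higher genes, 11 and 8 stayed past 2-fold without cells of other types and without surface ectoderm cells too. The share of measured genes at least 2-fold higher and lower in positive cells (4.65% and 7.70%) moved beyond 1.5 times, as a share or a count, under these settings. With Rn45s in the denominator 4.83% were lower. With no minimum CPM 16.69% (2504 genes) were higher and 13.4% (2014) lower, and at 20 CPM 1.57% and 3.83%. Without cells with 3 markers of another type, which left 21 positive and 5 negative cells, 26.5% (2648) were higher and 16.1% (1611) lower. After the data were seen, 9.002% (916) were higher among cells of no other type with 5000 detected genes, and 9.55% (971) when cells with 7 surface ectoderm markers were left out too.

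Named genes, and list medians past 2-fold, changed sign where cells were left out by their markers or detected genes. In the order 3 markers, 5 markers, 5000 genes and surface ectoderm, the ectomesenchyme median was 0.97, 0.32, 0.47 and 0.34, and that of head and paraxial mesoderm 1.72, 1.52, 1.81 and 1.01. Without cells with 3 markers the ratios were −0.75 for Slc29a2, −0.14 for Ppp1r16a, −0.62 for Galnt16, 5.50 for Plat, 0.042 for Dab2, 0.12 for Fn1, 1.06 for Cdkn1c, 0.27 for Peg3, 3.97 for Ets1 and 0.27 for Gpx3. Mapk8ip2 was at −0.31 with 5000 genes. Emilin1 was at 1.33, 0.24 and 4.27 under the last 3, and Ets1 at 0.48 under the last. The cause was not tested. No paired analysis was possible because the labels give no replicate number shared by the groups. With 34 negative cells, shares of a few percent cannot be told from 0.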
